A study of Mus musculus with 8 samples.

Results

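The collagen genes were the rows of a hippocampal gene expression table whose symbol is Col, a number, the letter a and a further number, and 44 of the 19201 genes listed met this rule. RNA sequencing was done on 8 libraries, 4 from wild-type mice, which the labels call control, and 4 from mice lacking Mbd2, a protein that binds methylated CG dinucleotides in DNA. The wild-type mice were C57BL/6, and the Mbd2-/- mice were constitutive knockouts on the same strain background. Both genotypes were littermates bred from heterozygous parents and were 10 to 12 weeks old, and no other allele or treatment was named for either group. The study states that it combined males and females, balanced between groups, and the sexes within each library were not used here. Each library held the hippocampi of both sides from 2 pooled mice. The replicates are therefore pools, and all p-values measure the spread between 4 pools of each genotype.

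Collagens are the structural proteins of the extracellular matrix, built from chains that wind into a rope-like helix. Fibrillar collagens (types I, II, III, V, XI, XXIV and XXVII) form the fibers of connective tissue, which in the brain lie mainly in the meninges, around larger vessels and in the stroma of the choroid plexus, the tissue that secretes cerebrospinal fluid. Type IV collagens form the sheet-like network of the basement membrane under endothelium and epithelium, type VI forms beaded filaments beside it, and type VIII forms short-chain networks around vessels and under epithelia. FACIT collagens decorate the surface of fibrils, multiplexins (types XV and XVIII) sit in basement membranes, and transmembrane collagens such as type XXV stay anchored in the cell that makes them, which for type XXV includes neurons.

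The values are normalized counts, the reads on a gene divided by a size factor of the library. Reads recovered from them totalled between 8439570 and 23790825 in the wild-type libraries and between 8087750 and 14020765 in the Mbd2-/- libraries. Genes averaging at least 10 normalized counts entered a limma test of log2(normalized count + 1), and a gene was called when its Benjamini-Hochberg adjusted p over all 14504 tested genes was under 0.05. Fold changes are given on that log2 scale as Mbd2-/- minus wild-type, and the added 1 draws those of genes with few reads toward 0. Mbd2 itself measured 295.3, 362.6, 371 and 354.3 normalized counts in the wild-type libraries and 243.9, 239.6, 339.5 and 217.2 in the Mbd2-/- libraries, a log2 fold change of -0.43 (SE 0.12, limma adjusted p = 0.0174; exact two-sided permutation p = 0.0571, where 0.0286 is the smallest possible). The Mbd2-/- replicate 3 value lay within the wild-type range, and reads from the parts of the gene that the deletion leaves in place are counted with the rest, so the total is a weak check of the genotype labels. The 12 listed markers of hippocampal neurons were all above 0 in every library. So were the listed markers of thalamus and choroid plexus, so presence alone cannot check the tissue label. Of the 12, 3 were called higher (Camk2a, Bok and Spink8) and 3 lower (Wfs1, Fibcd1 and Prox1). That is 25% each way beside 12.0% and 10.0% of all tested genes, with a median log2 fold change of -0.06. The sums of the 12 were 95373 to 97250 in wild-type and 104879 to 110302 in Mbd2-/-. Without Camk2a alone they were 28301 to 28622 and 24195 to 28067, so that gene set the direction of the sum.

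Of the 44 collagen genes, 39 were tested, and 6 were called higher and 5 lower in Mbd2-/- hippocampus. Col1a1, Col8a1, Col14a1, Col8a2, Col1a2 and Col9a3 rose, and Col6a1, Col6a3, Col4a2, Col25a1 and Col4a1 fell. These are 15.4% and 12.8% of the tested collagens, beside 12.0% of all tested genes called higher and 10.0% called lower. For 15 of the 39 collagens (38.5%) the wild-type and Mbd2-/- ranges were separate, as they were for 23.6% of all tested genes. The 11 called collagens were all among these 15, and the other 4 were Col4a5, Col5a3, Col7a1 and Col12a1 (for Col12a1, 110.9 to 145.5 normalized counts in wild-type and 97.23 to 109.5 in Mbd2-/-, limma adjusted p = 0.117). The log2 fold changes of the 39 ran from -0.84 to 1.37 with a median of -0.18, beside a median of about 0.00 over all tested genes, and 28 of the 39 (71.8%) lay below 0, beside 50.05% of all tested genes. With the trend of each library on transcript length removed, the median of the 39 was -0.07. The sum of all collagen counts was 5657 ± 268 (SD, n = 4) in wild-type and 5971 ± 360 (SD, n = 4) in Mbd2-/-, with overlapping ranges of 5412 to 6019 and 5704 to 6498.

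**Figure D1:**
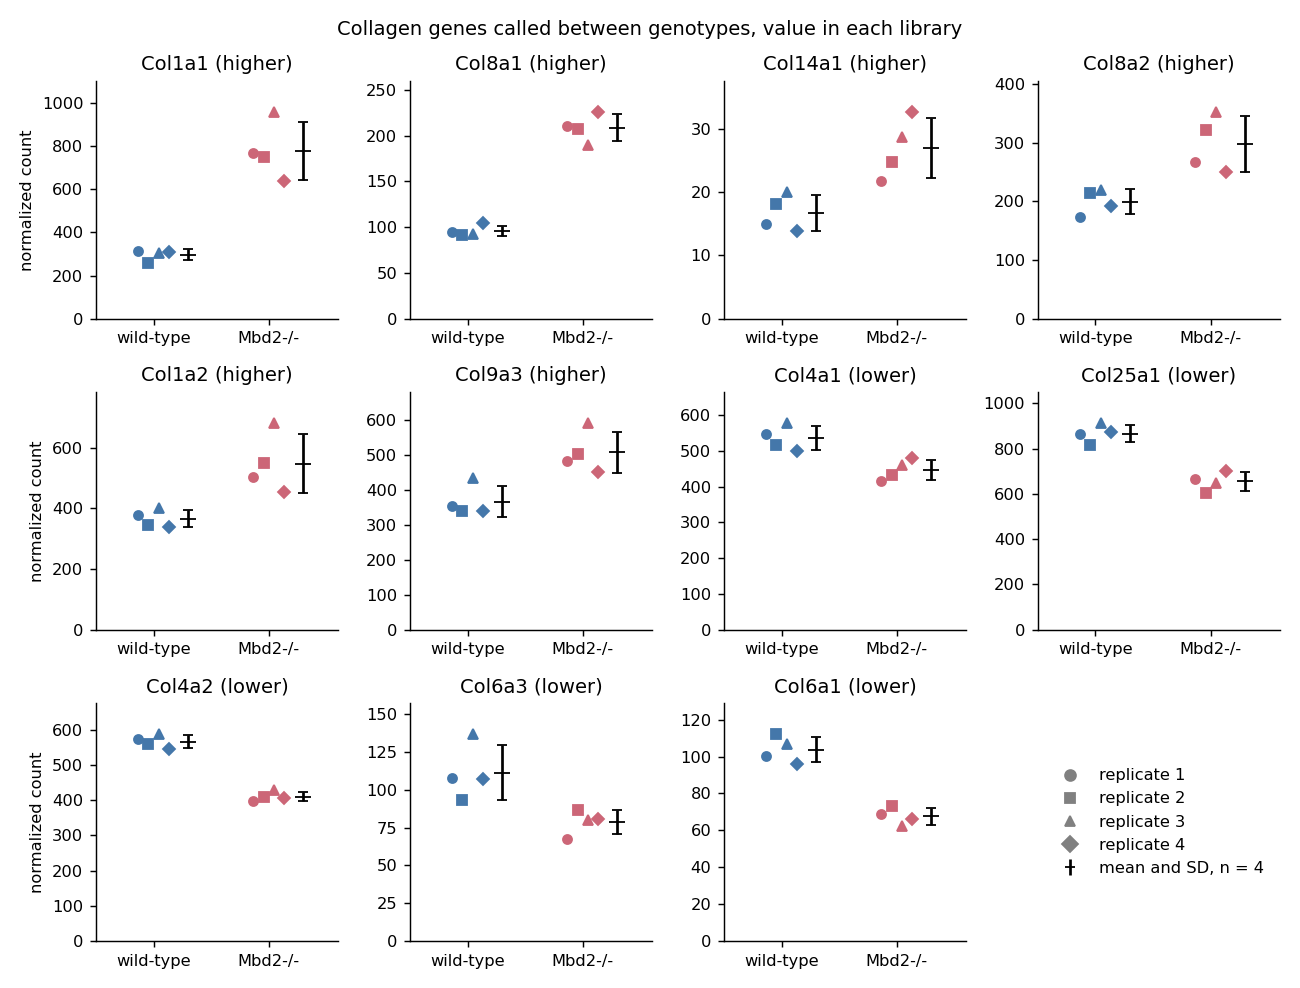
Normalized counts (linear vertical axes from 0) of the 11 called collagen genes in each of the 4 wild-type libraries (blue) and the 4 Mbd2-/- libraries (red), with the marker shape giving the replicate number and black bars the mean and SD. In each panel the genotypes do not overlap; Col1a1 spans 259.6 to 313.3 in wild-type and 637.1 to 957.9 in Mbd2-/-.

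The starts of 4 called genes are shown because Mbd2 reads methylated CG and because Col4a1 and Col4a2 share a start region. Each is 300 bases, 250 before and 50 after the start in RefSeq's table for GRCm38.p6, placed on mm9 by an exact unique match and written 5′ to 3′ on the gene's strand, with CG dinucleotides in capitals. Such windows were at hand for 35 of the 44 collagen genes, and all 35 were placed.
Col4a1: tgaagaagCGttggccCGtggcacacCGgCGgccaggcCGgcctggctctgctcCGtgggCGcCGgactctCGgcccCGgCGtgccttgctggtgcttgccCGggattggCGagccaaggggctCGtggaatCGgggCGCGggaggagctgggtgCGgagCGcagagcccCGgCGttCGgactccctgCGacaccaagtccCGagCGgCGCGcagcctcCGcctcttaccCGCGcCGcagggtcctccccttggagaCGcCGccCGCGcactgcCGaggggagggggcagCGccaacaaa
Col4a2: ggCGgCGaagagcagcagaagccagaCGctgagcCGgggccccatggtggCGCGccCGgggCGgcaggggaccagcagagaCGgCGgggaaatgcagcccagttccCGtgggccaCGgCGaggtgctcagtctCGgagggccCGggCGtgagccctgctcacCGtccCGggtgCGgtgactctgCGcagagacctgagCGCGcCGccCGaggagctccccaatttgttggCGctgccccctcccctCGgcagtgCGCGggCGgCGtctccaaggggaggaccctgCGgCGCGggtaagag
Col8a1: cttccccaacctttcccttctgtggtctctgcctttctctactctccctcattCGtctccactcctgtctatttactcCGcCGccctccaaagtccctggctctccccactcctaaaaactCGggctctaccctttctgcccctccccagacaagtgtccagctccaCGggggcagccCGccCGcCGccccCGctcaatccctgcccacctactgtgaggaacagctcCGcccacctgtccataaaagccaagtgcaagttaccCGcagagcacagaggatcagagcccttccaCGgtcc
Col6a1: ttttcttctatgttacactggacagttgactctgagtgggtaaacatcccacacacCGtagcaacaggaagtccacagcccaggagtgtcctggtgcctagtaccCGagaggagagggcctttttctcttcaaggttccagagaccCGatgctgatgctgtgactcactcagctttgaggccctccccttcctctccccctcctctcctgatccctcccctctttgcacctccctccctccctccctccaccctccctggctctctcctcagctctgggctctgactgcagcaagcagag
The Col4a1 window lies at chr8:11312777-11313076 on the minus strand and holds 37 CG, and 5.37% of the 27025 mouse genes with a window hold as many or more. The Col4a2 window lies at chr8:11312555-11312854 on the plus strand and holds 33 CG, a number that 8.27% of genes reach. The windows of these head-to-head neighbors share 78 bases, and each has CCAAT on either strand, as 37.9% of all windows do. The Col8a1 window, at chr16:57754801-57755100 on the minus strand, has 12 CG (reached by 40.1% of genes), and the Col6a1 window, at chr10:76188740-76189039 on the minus strand, has 3 (76.2%), against a median of 7 over all genes. Among the other called genes, Col8a2 has 32 CG, Col25a1 has 23, Col1a2 has 13 and Col6a3 has 3. No window is given for Col1a1, Col9a3 and Col14a1. Col8a2, which rose, and Col4a2, which fell, have 32 and 33. These are letters of the reference, and no methylation value enters here.

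Among the fibrillar collagens, both chains of type I rose, and no other tested member was called. The type I chains were 20% of the 10 tested members, beside 12.0% of all tested genes called higher. Col1a1, which encodes the alpha-1 chain of type I collagen (chr11:94797538-94814356, plus strand, mm9), measured 313.3, 259.6, 306.3 and 309.6 normalized counts in wild-type and 770, 747.1, 957.9 and 637.1 in Mbd2-/-. Its mean was 2.62 times higher in Mbd2-/- (log2 fold change 1.37, SE 0.10, limma adjusted p = 7.23e-07), the largest change of any collagen tested. Every Mbd2-/- library was more than double the highest wild-type one. Col1a2, which encodes the partner alpha-2 chain (chr6:4454814-4491543, plus strand), measured 377.7, 346.1, 402 and 339.4 in wild-type and 504.4, 547.8, 680.6 and 454.5 in Mbd2-/-, a log2 fold change of 0.56 (SE 0.10, limma adjusted p = 0.00138). In both genes the Mbd2-/- replicate 3 was the highest library and replicate 4 the lowest of its genotype.

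The other 8 tested fibrillar members did not pass the test, and their log2 fold changes ran from -0.53 to 0.08. Col3a1, the chain of type III collagen, which is co-assembled with type I in many tissues, measured 88.43, 88.78, 76.57 and 86.04 in wild-type and 81.72, 89.62, 103.6 and 57.66 in Mbd2-/- (log2 fold change -0.06, SE 0.15, limma adjusted p = 0.815). Its Mbd2-/- libraries lay on both sides of the wild-type range. Col5a1 and Col5a2, chains of the type V collagen that sits in the core of type I fibrils, had log2 fold changes of -0.18 (SE 0.15) and 0.08 (SE 0.14). Col5a3 ran from 39.3 to 41.97 in wild-type and from 20.72 to 38.44 in Mbd2-/-, without overlap, but its limma adjusted p was 0.0660 (log2 fold change -0.53). Col11a2, level with Col1a2 as the most abundant fibrillar gene per kb of transcript in wild-type (69.5 ± 5.16 and 68.5 ± 5.44 SD, n = 4), stood at 62.4 ± 4.41 in Mbd2-/- with a log2 fold change of -0.16 (SE 0.08, limma adjusted p = 0.148). The family's median was -0.16, while its summed counts ran from 1435 to 1632 in wild-type and from 1874 to 2510 in Mbd2-/-. The type I chains alone gained more counts than the whole family did.

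Both chains of type VIII collagen rose in Mbd2-/- hippocampus. They were 66.7% of the 3 tested network and anchoring collagens, beside 12.0% of all tested genes called higher. Col8a1 (chr16:57624371-57754850, minus strand), which encodes the alpha-1 chain of this short-chain network collagen, measured 94.43, 91.79, 92.07 and 104.1 normalized counts in wild-type and 210.7, 207.6, 189.7 and 225.8 in Mbd2-/-. Its mean was 2.18 times higher (log2 fold change 1.12, SE 0.09, limma adjusted p = 1.72e-06), and the libraries of each genotype lay close together. Col8a2 (chr4:125964037-125991574, plus strand), which encodes the alpha-2 chain, measured 173.9, 214.4, 218.8 and 191.7 in wild-type and 266.9, 321, 352.3 and 249.9 in Mbd2-/- (log2 fold change 0.57, SE 0.11, limma adjusted p = 0.00198). Within Mbd2-/-, replicate 4 had the most Col8a1 and the least Col8a2, so the library order of the chains was not shared. Col7a1, the anchoring fibril collagen grouped with them here, had few reads (7 to 25 per library) and ran from 13.28 to 20.06 in wild-type and 8.649 to 12.77 in Mbd2-/- (log2 fold change -0.66, limma adjusted p = 0.0732).

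Of the 6 type IV genes of the basement membrane, only the common vascular chains Col4a1 and Col4a2 were called, and both fell. They were 33.3% of the family, beside 10.0% of all tested genes called lower. Col4a2 (chr8:11312805-11449287, plus strand) measured 572.6, 560.5, 587.1 and 545.5 in wild-type and 397.1, 407.9, 428.8 and 407.4 in Mbd2-/-, a log2 fold change of -0.46 (SE 0.06, limma adjusted p = 1.53e-04). The gap between the genotypes was wider than the range of either. Col4a1 (chr8:11198423-11312826, minus strand) measured 545.6, 516.9, 577 and 499.8 in wild-type and 415, 433.5, 459 and 479.5 in Mbd2-/-, a log2 fold change of -0.26 (SE 0.07, limma adjusted p = 0.0148). Its lowest wild-type and highest Mbd2-/- libraries were close, and the call was lost without Mbd2-/- replicate 1 (limma adjusted p = 0.0548), without Mbd2-/- replicate 2 (0.0507) or without wild-type replicate 3 (0.0623), and with the length trend of each library removed (log2 fold change -0.15, limma adjusted p = 0.128). The annotated ends of the pair overlap by 22 bases on opposite strands, and whether reads were counted by strand is not given in the sources used here, so reads in those bases cannot be assigned to either gene.

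The chains Col4a3, Col4a4, Col4a5 and Col4a6, which form the networks of specialised basement membranes such as those of the kidney, were at lower levels and did not pass the test. Col4a3 and Col4a4, which also lie head to head with 71 bases between them, had log2 fold changes of 0.57 (SE 0.29, limma adjusted p = 0.173) and 0.22 (SE 0.20). Col4a5 measured 107.9, 110.6, 107.6 and 105.7 in wild-type and 114.9, 120.7, 124.3 and 136.5 in Mbd2-/-. Its groups did not overlap, but its log2 fold change of 0.20 (SE 0.10) had a limma adjusted p of 0.154. Its neighbor Col4a6, head to head at 1.308 kb, stood at -0.09 (SE 0.17). The median over the 6 type IV genes was 0.05, with 3 members on each side of 0.

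**Figure D2:**
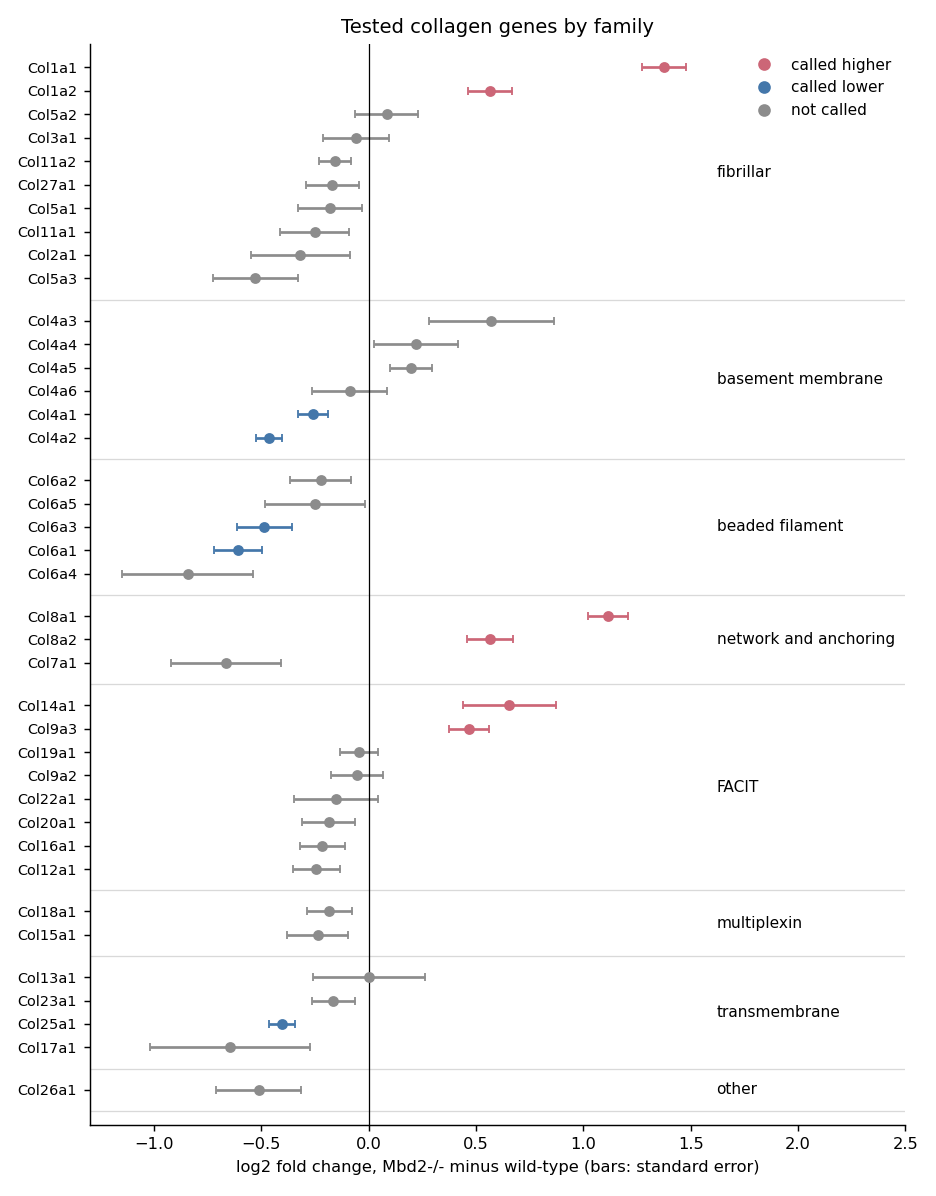
Log2 fold change, Mbd2-/- minus wild-type, of the 39 tested collagen genes (points) with its standard error (bars), by family, with red for genes called higher, blue for genes called lower and grey for the rest. Col1a1 at 1.37 and Col8a1 at 1.12 lie furthest to the right, Col4a1 and Col4a2 are the only blue points among the type IV genes, and all 5 type VI genes lie to the left of 0.

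All 5 tested type VI genes had log2 fold changes below 0, as did 71.8% of the tested collagens, and 2 of them were called lower (40%, beside 10.0% of all tested genes). Col6a1 (chr10:76171537-76188913, minus strand), whose chain is part of every type VI filament, measured 100.4, 112.1, 106.7 and 96.13 in wild-type and 68.95, 73.16, 62.16 and 66.31 in Mbd2-/- (log2 fold change -0.61, SE 0.11, limma adjusted p = 0.00140). Col6a3 (chr1:92663435-92740529, minus strand), the long chain of the classical filament, measured 107.9, 93.29, 136.7 and 107.3 in wild-type and 67.68, 86.88, 79.69 and 80.72 in Mbd2-/- (log2 fold change -0.49, SE 0.13, limma adjusted p = 0.0137). The lowest wild-type and highest Mbd2-/- libraries of Col6a3 were close, and the call was lost without Mbd2-/- replicate 1 (limma adjusted p = 0.0502) or wild-type replicate 3 (0.0613), and with the length trend of each library removed (0.0644). Col6a2, the remaining chain of the classical filament and an 85.161 kb neighbor of Col6a1, had a log2 fold change of -0.22 (SE 0.14, limma adjusted p = 0.272). Col6a4 had the lowest fold change of any tested collagen in the main fit, -0.84 (SE 0.31, limma adjusted p = 0.0573), from 5 to 40 reads per library. It was -0.67 with DESeq2 and -0.63 with edgeR, and Col17a1 was lower in both, at -0.69. The Mbd2-/- libraries of Col6a4 measured 7.662, 11.89, 7.969 and 24.02 against 20.31 to 23.98 in wild-type. Replicate 4 alone thus lay with the wild-type libraries, and without it the gene was called (limma adjusted p = 0.00157).

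Among the FACIT collagens, Col9a3 and Col14a1 rose (25%, beside 12.0% of all tested genes) and the other 6 tested members did not pass the test. Col9a3 (chr2:180332495-180356894, plus strand), a chain of type IX collagen, which coats cartilage fibrils, measured 353.7, 340.1, 433.9 and 339.4 in wild-type and 484, 502.1, 591.3 and 452.6 in Mbd2-/- (log2 fold change 0.47, SE 0.09, limma adjusted p = 0.00244). Its partner chain Col9a2 measured 65.33 to 73.84 in wild-type and 63.76 to 77.89 in Mbd2-/- (log2 fold change -0.05, SE 0.12). The third chain, Col9a1, was too low to be tested, at 8.993, 6.771, 1.823 and 6.374 in wild-type and 15.32, 9.145, 12.75 and 14.41 in Mbd2-/-, from 2 to 15 reads per library. Col14a1 (chr15:55139305-55352358, plus strand), which binds type I fibrils, measured 14.99, 18.06, 20.06 and 13.81 in wild-type and 21.71, 24.69, 28.69 and 32.67 in Mbd2-/- (log2 fold change 0.65, SE 0.22, limma adjusted p = 0.0393). That call rests on 10 to 34 reads per library and was lost in 8 of the 17 alternatives that could be run for it.

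Col25a1, a transmembrane collagen of neurons, was with Col9a3 among the most abundant collagens per kb of transcript in wild-type hippocampus and fell in Mbd2-/-. It measured 863.3, 817.1, 912.5 and 874.2 in wild-type and 667.8, 604.5, 647.1 and 701.5 in Mbd2-/- (log2 fold change -0.40, SE 0.06, limma adjusted p = 4.51e-04; chr3:129883809-130302795, plus strand), with a gap between the genotypes wider than the range of either. Col25a1 was 25% of the 4 tested transmembrane members, beside 10.0% of all tested genes called lower. The other 3 were not called. Col17a1, the hemidesmosome collagen, had the largest fold change of these, -0.65 (SE 0.37, limma adjusted p = 0.229), from 3 to 32 reads per library. The multiplexins Col15a1 and Col18a1 had log2 fold changes of -0.24 (SE 0.14, limma adjusted p = 0.249) and -0.18 (SE 0.11, limma adjusted p = 0.228). The value of Col15a1 was -0.12 without wild-type replicate 3, and that of Col18a1 was -0.08 with the length trend removed. Col26a1, which belongs to none of these families, had -0.51 (SE 0.20, limma adjusted p = 0.0718) and was called lower with edgeR's quasi-likelihood test (adjusted p = 0.0437), with limma-voom (0.0429) and without Mbd2-/- replicate 3 (0.0332). The 5 genes too low to test were Col9a1, Col6a6, Col10a1, Col24a1 and Col28a1, and Col28a1 was at 0 in wild-type replicate 1 and Mbd2-/- replicate 1.

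Levels were set side by side between genes as normalized counts per kb of the longest annotated transcript. In wild-type the order was led by Col25a1 at 129 ± 5.86 (SD, n = 4) and Col9a3 at 120 ± 14.9, which lay within their spread of each other. They were followed by Col4a2 at 87.8 ± 2.74, Col4a1 at 80.9 ± 5.12, Col11a2 at 69.5 ± 5.16, Col1a2 at 68.5 ± 5.44 and Col1a1 at 50.1 ± 4.26. In Mbd2-/- the order was led by Col9a3 at 167 ± 19.5 and Col1a1 at 131 ± 22.5, followed by Col1a2 at 102 ± 18.1 and Col25a1 at 97.8 ± 6.06. Col1a1 thereby stood below Col4a1 and Col4a2 per kb in wild-type and above both, at 67.5 ± 4.28 and 63.6 ± 2.06, in Mbd2-/-.

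As a share of all collagen counts in a library, fibrillar collagens took 27.1% ± 0.57 (SD, n = 4) in wild-type and 35.2% ± 2.59 in Mbd2-/-. Basement membrane collagens took 22.7% ± 0.41 and 17.9% ± 0.99, network and anchoring collagens 5.63% and 8.73%, beaded filament collagens 5.83% and 4.05%, and transmembrane collagens 17.7% and 13.0%. FACIT collagens were near level at 17.5% and 18.3%. These shares are descriptions that follow from the called genes named, and a rise of one share lowers the others.

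The chains of a collagen type were also compared as ratios within each library. The ratio of Col1a1 to Col1a2 per kb was 0.748, 0.676, 0.687 and 0.823 in the wild-type libraries and 1.38, 1.23, 1.27 and 1.26 in the Mbd2-/- libraries, without overlap. The ratio of Col4a1 to Col4a2 was 0.920 ± 0.030 (SD, n = 4) in wild-type and 1.06 ± 0.058 in Mbd2-/-, and that of Col9a3 to Col9a2 was 4.98 ± 0.49 and 7.21 ± 1.24, both without overlap. For each of these 3 pairs the exact two-sided permutation p was 0.0286, the smallest that 4 against 4 libraries allow, and 0.0857 after Benjamini-Hochberg adjustment over the 9 pairs compared. No pair passed, but with so few libraries even complete separation of the genotypes in a single pair could not have passed that adjustment. The ratio of Col8a1 to Col8a2 was 0.410 ± 0.058 and 0.610 ± 0.136, with overlap (exact permutation p = 0.0857, adjusted 0.129), and those of Col6a1 to Col6a3 were 2.09 ± 0.39 and 1.90 ± 0.23 (exact permutation p = 0.486). A ratio within a library is free of its size factor.

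**Figure D3:**
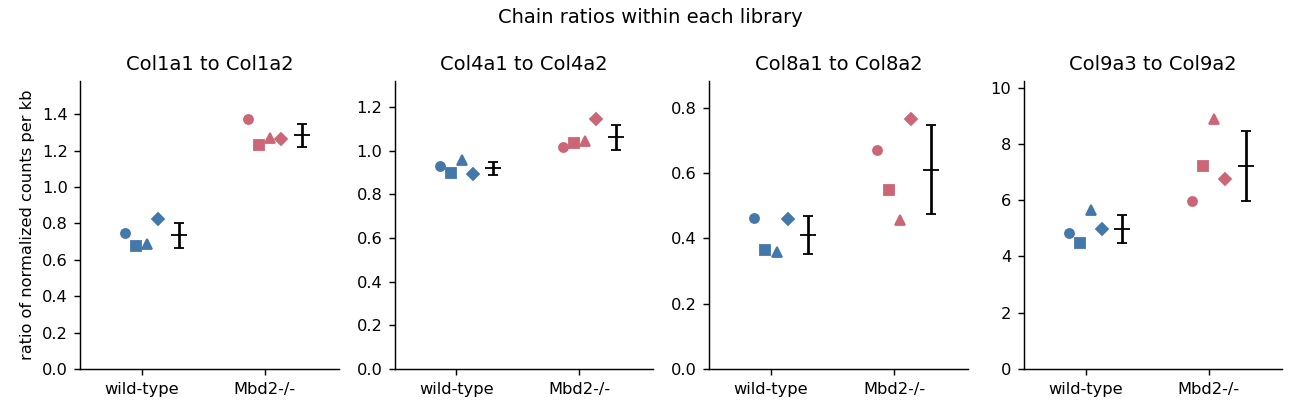
Ratio of normalized counts per kb of transcript between chains of the same collagen type in each wild-type (blue) and Mbd2-/- (red) library, with the mean and SD (n = 4, black) and the marker shape giving the replicate number as in the plot of counts. Col1a1 to Col1a2, Col4a1 to Col4a2 and Col9a3 to Col9a2 do not overlap between the genotypes, while Col8a1 to Col8a2 does.

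The genes around the collagens were counted in lists, each set beside the 12.0% of all tested genes called higher and the 10.0% called lower. Of 30 tested genes for collagen biosynthesis, 6 rose (20%) and 2 fell (6.67%), with a median log2 fold change of -0.01. Serpinh1, the collagen-specific chaperone of the endoplasmic reticulum, measured 235.3, 246.8, 254.3 and 277.8 in wild-type and 347.3, 313.7, 363.4 and 284.4 in Mbd2-/- (log2 fold change 0.36, limma adjusted p = 0.00777). P3h4, which acts with the collagen-modifying hydroxylases, ran from 124.9 to 143.1 in wild-type and 146.1 to 196 in Mbd2-/-, Loxl3, a crosslinking enzyme, from 60.19 to 70.64 and 83 to 108.4, and P4hb, a subunit of prolyl 4-hydroxylase and the most abundant of the list, from 1597 to 1671 and 1665 to 1995, and all 3 were called higher. Mia3, which helps load procollagen for export, fell from a range of 1486 to 1503 to one of 1258 to 1410, and Bmp1, the protease that trims procollagen ends, from 427 to 463.1 to 335.8 to 404.6.

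Of 16 basement membrane partners, laminin chains among them, 1 rose (6.25%) and 2 fell (12.5%), shares near those of all tested genes (median -0.06). Lamc1, the gamma chain of most laminins, fell from a range of 640.3 to 684.1 to one of 556.7 to 585.3, and Agrn, a heparan sulfate proteoglycan, from 1916 to 2178 to 1605 to 1774. Sparc, which binds collagen, ran from 3299 to 3669 in wild-type and from 3650 to 4345 in Mbd2-/- and was called higher. Of 9 collagen receptors, 1 was called in each direction (11.1% each, near the shares of all tested genes): Ddr2, the receptor kinase for fibrillar collagen, rose (log2 fold change 0.42, limma adjusted p = 0.00200; 174.5 to 189.1 against 232.7 to 274.8) and Itga11, an integrin chain that binds type I collagen, fell (-0.51, limma adjusted p = 0.0152). Ddr1, the most abundant receptor of the list, had a log2 fold change of -0.02. Of 11 genes of collagen turnover only Timp2, an inhibitor of matrix metalloproteinases, was called, and it fell (-0.38, limma adjusted p = 1.98e-04), so that 9.09% of the list was called lower.

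Markers of meningeal and vascular cells, which make collagens, were called in both directions. Of 15 tested markers of meningeal fibroblasts, 2 rose (13.3%, beside 12.0% of all tested genes) and 3 fell (20%, beside 10.0%), with a median of -0.25, and all were above 0 in every library. Their summed levels were 2550 to 2672 in wild-type and 2732 to 2983 in Mbd2-/-, and Igf2 alone set that direction, since without it the sums were 1515 to 1524 and 1356 to 1555. Ogn, a small proteoglycan of fibroblasts, measured 61.45, 93.29, 80.22 and 73.3 in wild-type and 146.8, 133.5, 122.7 and 170.1 in Mbd2-/- (log2 fold change 0.89, limma adjusted p = 3.97e-04), and Igf2 ran from 1030 to 1153 and from 1360 to 1511. Dcn, the proteoglycan decorin, measured 230.8, 236.2, 207.8 and 245.9 in wild-type and 189, 170.1, 119.5 and 174.9 in Mbd2-/- (-0.51, limma adjusted p = 0.00687). Crabp2 fell from a range of 27.35 to 37.47 to one of 9.61 to 11.16, and Aldh1a2 from 74.94 to 93.89 to 59.44 to 63.76, both genes of retinoic acid handling. Among these called markers, Ogn and Igf2 rose as type I collagen did, and Dcn, Crabp2 and Aldh1a2 fell.

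Of 12 endothelial markers, Cldn5 and Slco1a4 rose (16.7%, beside 12.0% of all tested genes) and none fell (median 0.08, sums 3096 to 3275 and 3263 to 3480, and without Flt1 2449 to 2579 and 2689 to 2789), while Flt1, the most abundant, had a log2 fold change of -0.10 (limma adjusted p = 0.357). Of 9 pericyte markers, Rgs5, Kcnj8 and Atp13a5 rose (33.3%) and Anpep fell (11.1%) (median 0.17, sums 2349 to 2482 and 2797 to 2928), and of 6 smooth muscle markers none was called (sums 636.8 to 674.9 and 610.5 to 708.2), Mylk, the most abundant, among them (-0.14). Col4a1 and Col4a2, which endothelial cells and pericytes make, fell beside these values. In whole tissue, fewer cells of a type and less RNA per cell cannot be told apart.

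All 18 markers of choroid plexus epithelium were called higher (100%, beside 12.0% of all tested genes). This list was chosen with earlier results of these data known, so it is no independent check. None of the markers overlapped between the genotypes (beside 23.6% of all tested genes without overlap) and none was at 0 in any library. Their sums were 26264, 24603, 24547 and 25748 in wild-type and 51809, 53613, 53907 and 47508 in Mbd2-/-, and Ttr, their most abundant member, went from 12761 ± 648 (SD, n = 4) to 32066 ± 3323. Wfikkn2 (log2 fold change 1.35), Ttr (1.32) and Aqp1 (1.19) changed most. Among the Mbd2-/- libraries, Ttr was highest in replicate 3 and lowest in replicate 4, as were Col1a1, Col1a2, Col8a2 and Col9a3. Col8a1 had the reverse ends, lowest in replicate 3 and highest in replicate 4. So did the sum of the choroid plexus markers without Ttr, which ran from 18966 to 20204 in Mbd2-/- and from 12252 to 12802 in wild-type. The 18 markers shared no library order, since replicate 2 was the highest Mbd2-/- library for 7 of them, replicates 3 and 4 for 4 each and replicate 1 for 3, and replicate 3 was the lowest for 9 and replicate 4 for 6. Of 12 thalamus markers, 9 fell (75%, beside 10.0% of all tested genes called lower) and none rose. None was at 0 (sums 5680 to 5829 in wild-type and 3915 to 4418 in Mbd2-/-). Gbx2 (-1.51), Zic1 (-0.70) and Slc17a6 (-0.66) changed most, and Rora, the most abundant, had -0.35. The part of these tissues in the collagen values was not tested.

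**Figure D4:**
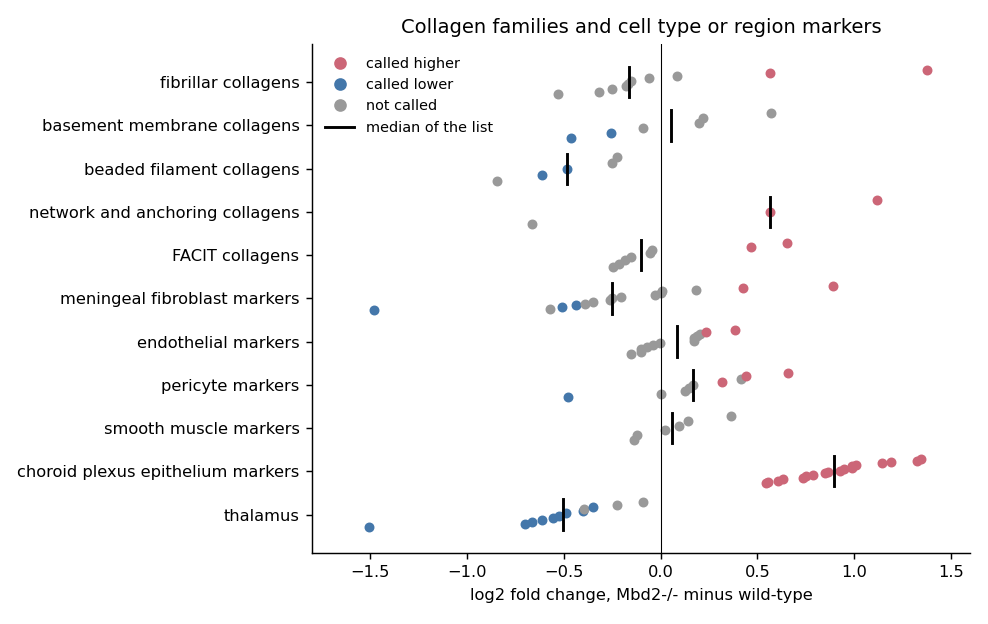
Log2 fold change, Mbd2-/- minus wild-type, of each tested gene in 5 collagen families and 6 lists of cell type or region markers (points; red called higher, blue called lower, grey not called), with the median of each list as a black line. The choroid plexus epithelium markers all lie to the right of 0 and the thalamus markers all to the left. The beaded filament collagens lie to the left as well, and the other collagen families shown and the meningeal fibroblast markers lie on both sides.

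Transcript length moved with genotype over all genes. Across 14154 genes with a known length, Spearman's rho of the log2 fold change with length was -0.46, given as a description across genes, which are not independent. Against the wild-type mean, Mbd2-/- replicates 1 to 3 had rho of -0.48, -0.43 and -0.48 and replicate 4 had -0.10, while the wild-type libraries lay between -0.07 and 0.06. Collagen transcripts are long, with a median of 6119 bases over the tested members against 3189 over all tested genes. The called-lower collagens had a median of 6615 bases and the called-higher ones 5228. With the length trend of each library removed, 25 of the 39 tested collagens instead of 28 lay below 0. Col4a2, Col6a1 and Col25a1 were still called lower, Col4a1 (log2 fold change -0.15, limma adjusted p = 0.128) and Col6a3 (-0.35, limma adjusted p = 0.0644) were not, and Col4a5 was called higher along with the 6 others. Whether length plays a part in the remaining differences was not tested.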

How the data were processed

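Total hippocampal RNA was depleted of ribosomal RNA with a RiboMinus kit and read as paired ends of 100 bases. Per the labels and the study's methods, the authors removed duplicate reads, aligned to mm9 with STAR and compared genotypes with DESeq2. Versions and the counting tool are not given in the sources used here. The deposited signal is a normalized count, reads divided by the DESeq2 size factor, and 100% of values were whole reads to within 0.01 of a read after division by the smallest value. Columns of the authors' own comparison (mean, fold change, error, statistic, p-values) were not used. Genes with a mean of at least 10 were tested on log2(value + 1) with limma 3.58.1 (trend, robust) in R 4.3.3, unpaired and tested on simulated data first. Fits with edgeR 4.0.16, DESeq2 1.42.0 and limma-voom on recovered reads, other pseudocounts, filters and scaling, a replicate block, removal of the length trend and leaving out each library were alternatives. Totals cover counting error only. Annotation was GENCODE vM1 on mm9, matched for 18063 of 19201 symbols (1251 by synonym). Named genes were Mbd2, every called collagen, and the most changed and most abundant member of each family. Abundance in a family was taken per kb from the higher genotype mean. For each list, up to 3 called members with the largest changes in each direction and the most abundant member were named. Members, lists and tests were chosen with earlier results of these data known. Col3a1, Col5a1, Col5a2, Col5a3, Col7a1, Col9a1, Col9a2, Col11a2, Col12a1 and the minor type IV and VI chains were named after their values were seen.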

Additional observations from a re-analysis of the deposited data

Results flagged for a closer look

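In 6 of the 78 groups of 4 libraries examined for the tested collagens, 1 library lay far from the other 3 (Dixon's test at 95%, which chance alone flags in about 1 of 20 groups). Col1a1 was 259.6 normalized counts in wild-type replicate 2 against 306.3 to 313.3 in the others of its genotype. Wild-type replicate 3 stood high for 3 genes, Col9a3 at 433.9 against 339.4 to 353.7, Col11a1 at 91.16 against 64.45 to 67.98 and Col15a1 at 82.04 against 57.36 to 60.19. Col6a5 was 30.81 in wild-type replicate 4 against 17.32 to 19.48, and Col4a4 was 33.2 in Mbd2-/- replicate 1 against 36.52 to 36.66. Col1a1 and Col9a3 were called higher whichever library was left out.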

How the results depend on the processing

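Col1a1, Col1a2, Col8a1, Col8a2, Col9a3, Col4a2, Col6a1 and Col25a1 kept their direction and their call in all 18 alternatives run, and none of the 17 collagens that the rule for named genes selects changed direction in any alternative run for it. The direction of the other collagens was not followed across alternatives. The number of collagens called higher was 5 to 6 when a library was left out, 5 with DESeq2 and 5 with the replicate block. The number called lower was 3 to 7 when a library was left out (3 without wild-type replicate 3 or Mbd2-/- replicate 1), 6 with the replicate block, where Col6a4 was added, 6 with edgeR and with limma-voom, where Col26a1 was added, and 3 with the length trend removed, and in each of these low counts Col4a1 and Col6a3 were lost. The cause was not tested. The replicate numbers did not pair the libraries (correlations of deviations -0.10, -0.06, 0.07 and 0.04). With the block, Col14a1 had a limma adjusted p of 0.0522 and the log2 fold change of Mbd2 stayed -0.43 (0.00447). The Mbd2 change ran from -0.56 to -0.35 when a library was left out and lost its call without Mbd2-/- replicate 1 (limma adjusted p = 0.0539), Mbd2-/- replicate 2 (0.0576) or wild-type replicate 3 (0.0624). Over all genes, 3185 were called, and 2108 with the length trend removed. Leaving out Mbd2-/- replicate 4 gave 5156, and leaving out any other library gave 2073 to 2939. Libraries held as few as 10, 5 and 3 reads of Col14a1, Col6a4 and Col17a1, and the part of depth in their results was not tested.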
